A study of Drosophila melanogaster with 12 samples.

Results

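Sites bound by Ultrabithorax (Ubx) in haltere discs that were recovered in exactly 2 of 3 ChIP-seq libraries are described here, and are called 2-library sites. They were chosen by their overlap with the called peaks: a region of the authors' consensus list was taken when peaks of exactly 2 libraries covered at least 1 bp of it. On the chromosome arms 2L, 2R, 3L, 3R, 4 and X, and outside the tandem histone genes of 2L, 1114 of 2027 consensus regions met this rule (54.96%; 95% Wilson interval 52.8 to 57.1%), out of 2171 regions in the whole list. The other 913 were recovered in all 3 libraries and are called 3-library sites. Because the peak lists themselves chose the sites, their number, their library pairs, their widths and their fold enrichments are descriptions and were not tested.

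Ubx is a Hox protein, a homeodomain transcription factor that sets the identity of the segment bearing the haltere, the small balancing organ that replaces the hindwing in flies. Where Ubx is missing the haltere develops as a wing, and Ubx acts by changing the expression of many genes of the wing programme, among them genes of the Dpp, EGF receptor, Wingless and Fat/Hippo pathways. ChIP-seq finds the DNA to which a protein was crosslinked: fragments pulled down with an antibody are sequenced, and stretches with more reads than the local background are called as peaks.

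The libraries came from haltere imaginal discs of wandering larvae of the third instar of wild-type Canton S flies, immunoprecipitated with a polyclonal antibody to the N-terminal part of Ubx, in 3 biological replicates. The series also has 3 input libraries of haltere discs and, for wing discs, 3 ChIP and 3 input libraries of the same strain and stage; these were not analysed here. Peak lists hold no expression values, so the tissue label was not checked against marker genes. The deposited lists run to 2869 peaks (replicate 1), 2361 peaks (replicate 2) and 3859 peaks (replicate 3). They hold no read counts, so sequencing depth is unknown, and the lists give no level for a library in which no peak was called. Positions are those of the files, 1-based, in the build BDGP6 named by the submitters' processing notes; the gene table used was RefSeq's for Release 6, the same assembly. It gives the extent of each gene without strand, exons or UTRs, so a site is placed only as inside or outside a gene.

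Of the 1114 sites, the pair of replicates 2 and 3 gave 633 (56.8%), the pair of replicates 1 and 3 gave 414 (37.2%), and only 67 (6.01%) rested on replicates 1 and 2. Replicate 3, the longest list, had a peak at 94.0% of them, replicate 2 at 62.8% and replicate 1 at 43.2%. Without replicate 1 only the 633 sites of replicates 2 and 3 qualify, without replicate 2 the 414, and without replicate 3 the 67. Replicate 3 thus takes part in all but 67 of the sites.

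The 2-library sites were narrow. Their median width was 160 bp (quartiles 129 and 202 bp), against 300 bp for 3-library sites (228 and 416 bp), and 51 of them were under 50 bp, while the narrowest 3-library site was 141 bp. A consensus region holds only the bases that at least 2 libraries share, so width depends on the rule.

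Their peaks lay in the middle of each list by strength. The fold enrichment (the authors' ratio of the peak summit over background) had a median of 4.30 in replicate 1, 4.04 in replicate 2 and 4.62 in replicate 3. These medians lie at percentiles 48.3, 49.4 and 56.5 of the lists. At 3-library sites the medians were 4.95, 5.07 and 6.69 in the same order, at percentiles 67.6, 74.7 and 85.3. Peaks found in 1 library only had medians of 4.17, 3.55 and 3.92. In each library the order was the same, with 3-library sites highest and 1-library peaks lowest, and the ranges overlapped widely.

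**Figure D1:**
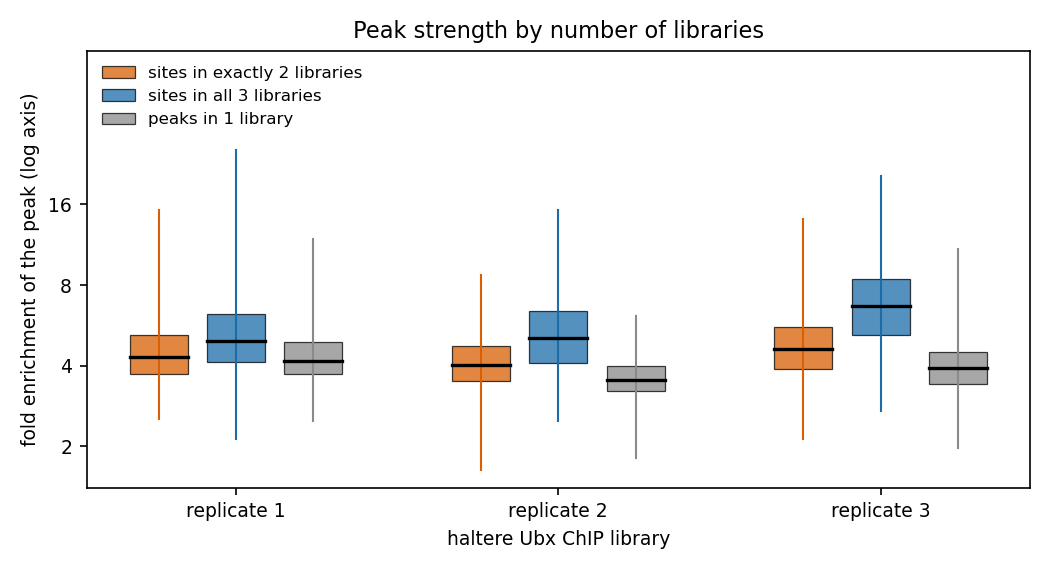
Fold enrichment of peaks in each haltere library (log axis), for sites in exactly 2 libraries, sites in all 3 and peaks in 1 library; boxes show quartiles, black lines medians and thin lines the full range. In replicate 3 the median is 4.62 at sites in exactly 2 libraries, 6.69 at sites in all 3 and 3.92 at peaks found there only.

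A minority of the 2-library sites were strong in both of their libraries. The strongest by mean percentile lay inside tkv, the gene of a type I receptor for the growth factor Dpp (2L, 5239870 to 5240178). Its fold was 8.75 in replicate 2 and 9.46 in replicate 3, percentiles 97.4 and 95.7. No replicate 1 peak overlapped it, and the nearest replicate 1 peak, 2912 bp away, was one of the strongest of its list with a fold of 16.4.

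The next lay inside fz2, which encodes a Frizzled receptor for Wingless (3L, 19194401 to 19195138). It was also the widest 2-library site, at 738 bp, with folds of 7.66 in replicate 2 and 10.4 in replicate 3. A weak replicate 1 peak with a fold of 3.52 lay 309 bp from it. The third strongest, inside Np on 2R (8994454 to 8994822), had folds of 8.14 and 9.32 in replicates 2 and 3, and the nearest replicate 1 peak was 34112 bp away. Np encodes a transmembrane serine protease.

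The site ranked next was a case of the pair of replicates 1 and 3. It lay 121 bp from lbl, a homeobox gene of the ladybird pair (3R, 21434255 to 21434525), with folds of 12.8 in replicate 1 and 7.63 in replicate 3. The nearest replicate 2 peak was 17121 bp away, and the nearest 3-library site was 173887 bp away. Of the 10 strongest sites this was the only one not from replicates 2 and 3. The other 6 of these lay nearest to CG4766, PRAS40, CG33286, CG7011, Rh5 and 14-3-3epsilon, with mean percentiles between 92.7 and 94.1. Among them, the sites nearest to CG33286, CG7011 and Rh5 lay 7541, 17604 and 1095 bp from the gene.

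Summits of the paired peaks were close together. The distance between them had a median of 38 bp for the sites of replicates 2 and 3, 64.5 bp for replicates 1 and 3, and 52 bp for replicates 1 and 2. The same pairs of libraries at 3-library sites had medians of 31, 46 and 45 bp. All of these medians are shorter than the narrowest called peak, 118 bp, while single offsets at 2-library sites reached 934 bp. A site exists only where peaks of different libraries overlap, so short offsets depend on the rule.

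How the remaining library missed these sites was examined next. In 215 of 1114 sites (19.3%; 17.1 to 21.7%) a peak of the missing library lay within 500 bp without touching, and in 73 (6.55%) within 200 bp. In 440 (39.5%) it lay within 2 kb, and in the others farther off. The median gap was 4415 bp to replicate 1 where that was missing, 4597 bp to replicate 2 and 1135 bp to replicate 3. Of the 215 near peaks, 106 belonged to a 3-library site next door, 73 to another 2-library site and 36 were peaks found in 1 library. Most 2-library sites thus had no called peak of the remaining library within 2 kb.

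The gene Rbp6, coding for an RNA-binding protein of the Musashi family, shows the edge of the rule. A single replicate 3 peak there (fold 3.51) overlapped a replicate 1 peak (fold 4.46) and a replicate 2 peak (fold 2.99). Those peaks missed each other by 3 bp, so the gene has 2-library sites at 3L, 17229496 to 17229640 and 17229644 to 17229698, in place of a 3-library site. On the other side of the rule, the 3-library site least covered by one library, inside CG12535 on X, had 36 of its 149 bp under a replicate 1 peak, with folds of 4.21, 4.27 and 5.15 in replicates 1, 2 and 3. At the lower edge, the narrowest 2-library sites were 1 bp wide, among them one inside ckd (3L, 3265507) with folds of 3.90 in replicate 2 and 3.71 in replicate 3. A replicate 2 peak of fold 3.29 on 3R that missed a replicate 3 peak of fold 13.2 by 1 bp was left out as a 1-library peak. In all, 55 sites (4.94%) shared a peak with another 2-library site, and 31 (2.78%) shared one with a 3-library site.

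The distance to the nearest 3-library site ranged between 4 and 5171006 bp, with a median of 13030 bp (quartiles 2162 and 69563 bp). Within 1 kb of a 3-library site lay 182 of the 1114 (16.3%), within 10 kb 505 (45.3%) and within 100 kb 907 (81.4%), which leaves 207 (18.6%) farther off. The median was 12629 bp for sites of replicates 1 and 2, 11012 bp for replicates 1 and 3 and 14123 bp for replicates 2 and 3. Beyond 100 kb lay 23.9%, 15.5% and 20.1% of the sites in the same order. Differences between the pairs were not tested.

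A 3-library site lay closer to the next one of its kind, at a median of 5176 bp with 60.1% within 10 kb. Peaks found in 1 library lay farther out: the medians were 56563 bp (replicate 1), 76291 bp (replicate 2) and 35945 bp (replicate 3). The 2-library sites were between these groups at every distance from 1 to 100 kb. These distances share their end points and were not tested. When only peaks with a −log10 q-value of at least 5 were kept, the median of the 2-library sites was 17360 bp. This setting also removes peaks of 3-library sites, whose −log10 q-values went down to 2.11 in replicate 1. Both ends of the distance thus change, and the median does not show that stronger 2-library sites lie farther out.

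**Figure D2:**
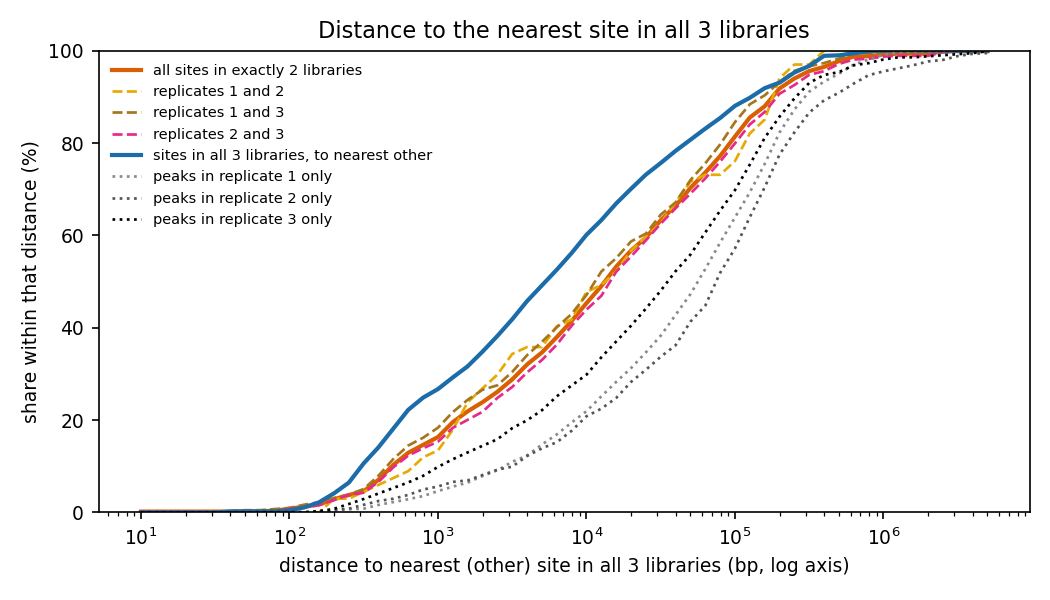
Share of sites (vertical axis, %) with a site in all 3 libraries within a given distance (horizontal axis, bp, log scale), for sites in exactly 2 libraries and their 3 library pairs, for sites in all 3 libraries to their nearest other, and for peaks found in 1 library. At 10 kb the share is 45.3% for sites in exactly 2 libraries and 60.1% for sites in all 3.

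Chains of sites with gaps under 2 kb put these distances in context. In 278 cases (24.96%) a 2-library site belonged to a chain that also held a 3-library site, in 191 (17.1%) to a chain of 2-library sites only, and 645 (57.9%) stood alone. Seen from the other side, 272 of the 913 3-library sites (29.8%) had a 2-library site within 2 kb. Strength varied little with distance: the median of the mean percentile was 53.1 for the 267 sites within 2 kb, 51.9 at 2 to 20 kb, 49.2 at 20 to 100 kb and 50.6 beyond 100 kb. The sites far from any 3-library site were thus about as strong as those beside one.

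The closest 2-library site with no peak in common with a 3-library site was at 3L, 5852344 to 5852482, at a gap of 155 bp and 6679 bp away from vn. The next 4 lay between 159 and 187 bp away. One of them was inside osa, which encodes a subunit of the Brahma chromatin remodelling complex (3R, 17702328 to 17702526; folds 4.86 in replicate 2 and 7.17 in replicate 3). The 5 farthest sites all came from replicates 2 and 3 and lay near the centromeric ends of 3L and 3R. The farthest of them was on 3L, 28022995 to 28023144, 5171006 bp from a 3-library site and 10395 bp from l(3)80Fj. Its folds were 6.74 in replicate 2, percentile 91.4, and 3.25 in replicate 3, percentile 11.6.

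Another 3 of these 5 lay inside Myo81F, a myosin gene stretching over 1965857 bp of 3R. This gene had more 2-library sites than any other gene without a 3-library site, 5 in all, each from replicates 2 and 3. Their folds were between 2.27 and 4.21 in replicate 2 and between 2.86 and 4.58 in replicate 3, and their mean percentile was 20.02. Taken singly, the sites had mean percentiles between 2.51 and 55.3.

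The question of which genes the 2-library sites add was taken up at 13811 protein-coding genes. A gene counted when a site lay inside it or within 2 kb. The 2-library sites reached 690 genes (5%), the 3-library sites 459 (3.32%), and 194 genes had both. The 2-library sites therefore added 496 genes (3.59%) to the 459, which takes the total to 955. The 496 genes rest on 470 sites, because a site can add several neighbouring genes. Several neighbouring Ste genes on X are counted singly among them. Leaving out a library here kept only the sites of the remaining pair, with the 3-library sites unchanged. This gave 306 added genes without replicate 1, 199 without replicate 2 and 37 without replicate 3. Counting gene bodies only gave 290 added genes, and a flank of 5 kb gave 786.

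Most added genes hung on a single site: 408 of 496 (82.3%) had 1, 65 had 2, 21 had 3 and 2 had more. Of the 194 genes with both kinds of site, 86 (44.3%) had 2 or more 2-library sites. The supporting libraries were replicates 2 and 3 throughout in 265 added genes, replicates 1 and 3 in 163 and replicates 1 and 2 in 24, while 44 had sites from more than one pair. All 3 libraries had a peak somewhere at 120 of the added genes (24.2%), without the 3 coinciding. The nearest 3-library site was a median of 67544 bp from an added gene, within 10 kb for 65 of them (13.1%) and beyond 100 kb for 179 (36.1%).

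Gene length moves with these counts. The median length was 8400 bp for added genes, 31187 bp for genes with both kinds of site and 2184 bp for all 13811 genes, and its part in the counts was not tested. A 2-library site lay at an added gene in 470 cases (42.2%), at a gene that also had a 3-library site in 344 (30.9%; 25 sites at both), and in 325 (29.2%) no protein-coding gene was within 2 kb.

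After Myo81F, the added gene with most sites was Egfr, the gene of the fly EGF receptor, with 4. It encodes the receptor tyrosine kinase that promotes wing veins, and lies on 2R from 21522420 to 21559977. The sites at 21523957 to 21523983 and 21543153 to 21543279 came from replicates 1 and 3, with folds of 4.21 and 3.49 at the first and 3.17 and 6.21 at the other. A stronger site at 21553487 to 21553792 had folds of 5.79 in replicate 2 and 5.12 in replicate 3. The replicate 2 peak of this site ended 235 bp short of a site of replicates 1 and 3 (21554028 to 21554117; folds 4.59 and 3.24). All 3 libraries thus had a peak close together in Egfr, yet no consensus region there touched peaks of all 3, and the nearest 3-library site was 10188 bp from the gene. With peaks of a −log10 q-value of at least 5, Egfr kept 1 of its 4 sites, while EcR and trx kept 2 each.

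The ecdysone receptor gene EcR, whose product is the nuclear receptor for the moulting hormone, had 3 sites inside it on 2R. The site at 6125066 to 6125204 had folds of 4.50 in replicate 1 and 5.86 in replicate 3, and the site at 6147215 to 6147405 had 4.84 and 3.62. The site at 6153585 to 6153678 had folds of 4.81 in replicate 2 and 4.94 in replicate 3. The nearest 3-library site was 270353 bp from the gene, and EcR is thus one of the 179 added genes with none within 100 kb.

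Inside trx, the trithorax gene that keeps Hox genes active, the 3 sites came from 3 different pairs of libraries (3R). Their folds were 4.07 and 6.51 in replicates 2 and 3 at 14275913 to 14276053, 5.82 and 4.50 in replicates 1 and 3 at 14282522 to 14282645, and 3.92 and 4.39 in replicates 1 and 2 at 14284109 to 14284269. A 3-library site lay 4825 bp from the end of the gene. The gene rdx, which encodes a BTB adaptor that targets the Hedgehog effector Ci for destruction, also had 3 sites, between 13976385 and 14012184 on 3R. One of them, from replicates 1 and 2 (13988911 to 13989089), had a fold of 9.91 in replicate 1 against 3.44 in replicate 2, percentiles 98.5 and 25.4. The summits of these peaks were 199 bp apart, more than the 179 bp width of the site, so the libraries differed there in both rank and summit.

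**Figure D3:**
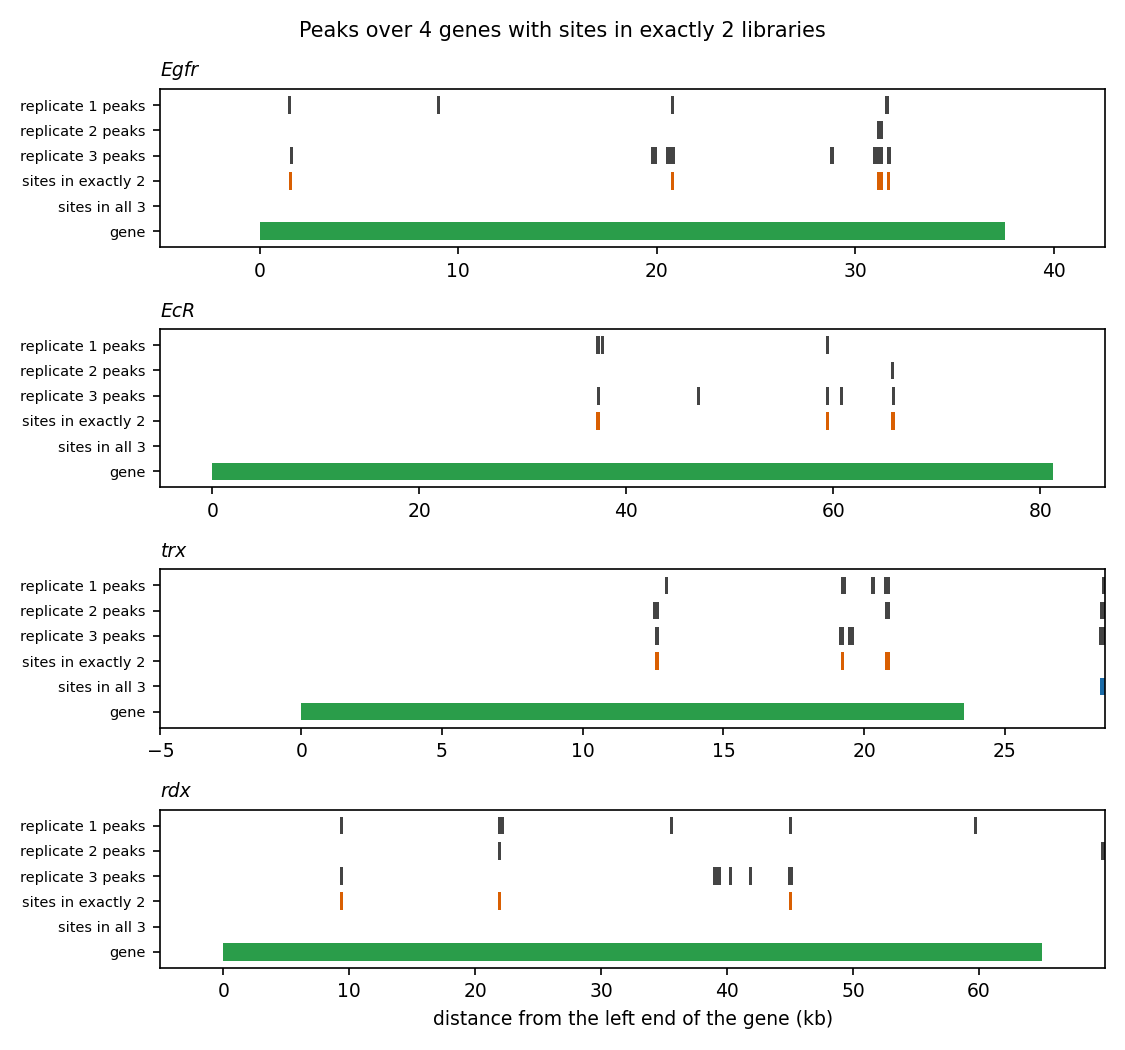
Peaks of the 3 haltere libraries, sites in exactly 2 libraries and sites in all 3 over Egfr, EcR, trx and rdx, by distance from the left end of the gene (kb); bars narrower than 1 in 300 of the panel are drawn at that width. The only site in all 3 libraries shown lies 4825 bp beyond the right end of trx.

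Of the 21 added genes with 3 sites, those with the highest mean percentile were taken as the rest of the 10 added genes with most sites. At ogre, which encodes an innexin gap junction protein, the 3 sites came from replicates 2 and 3 with folds of 6.55 and 7.43 at the best (X, 6983592 to 6983788). A replicate 1 peak lay 83 bp from it. The mean percentiles of the 3 were 89.8, 80.2 and 42.1. Also among them were CG43245, tun and Pits, with mean percentiles of 62.6, 56.8 and 55.7, and the strongest tun site also lies inside Zasp52. Some of these sites share a peak: 2 sites at Pits rest on the same replicate 1 peak (fold 5.58), and 2 at CG43245 on the same replicate 3 peak (fold 5.21).

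Genes of 18 lists from disc development were then looked up, 293 genes in all. The lists were drawn up with earlier results of these data known, so the counts are descriptions. A 2-library site reached 99 of the 293 genes, and 44 of them (15.02% of the 293) had no 3-library site, against the 3.59% of all protein-coding genes that were added. Another 55 had both kinds, 32 had 3-library sites only and 162 had neither.

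**Figure D4:**
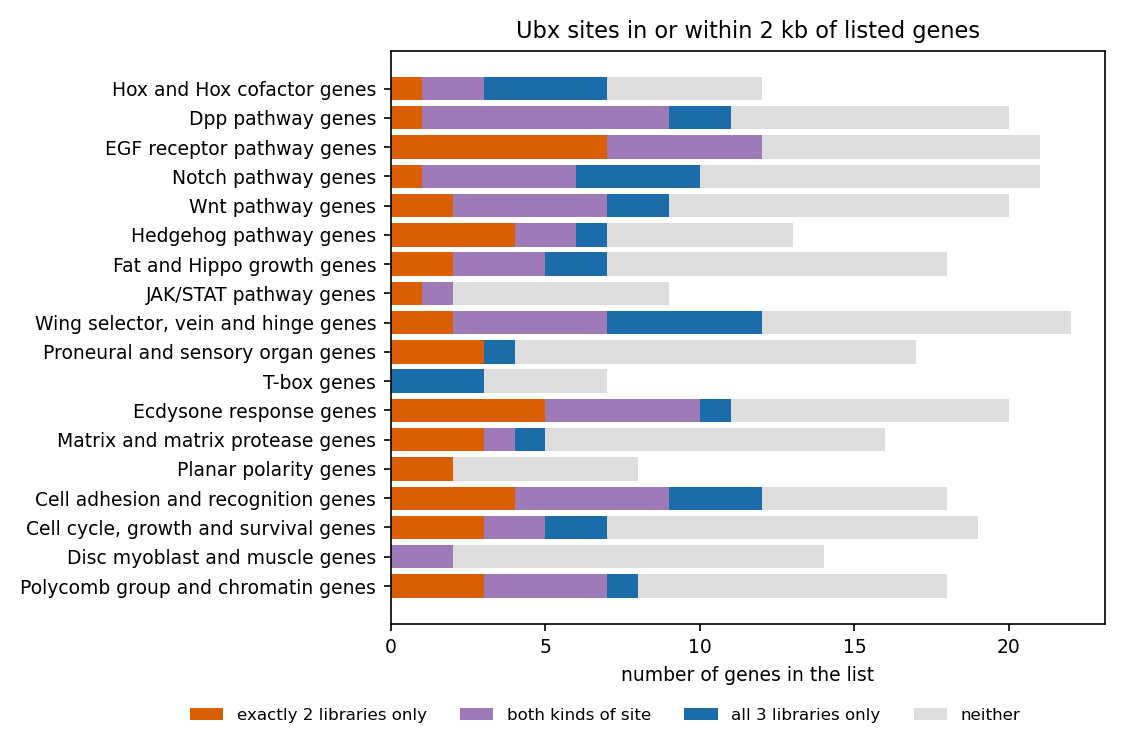
Number of genes in each of 18 lists (horizontal axis) with sites in exactly 2 libraries only, both kinds of site, sites in all 3 libraries only, or neither, counting sites in or within 2 kb of the gene. The EGF receptor list has 7 genes in the first group and 0 with sites in all 3 libraries only.

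The EGF receptor pathway had the most added genes, 7 of 21, while 5 had both kinds of site and 0 had 3-library sites only. Beside the receptor they were the ligand genes vn and Krn, rho and ru, whose intramembrane proteases release ligands, the inhibitor gene sty and the ETS factor gene pnt. The site near rho (3L, 1470157 to 1470384) had folds of 5.17 in replicate 2 and 6.45 in replicate 3, and lies 1212 bp from rho but inside the neighbouring gene Ptp61F. The sty site (3L, 3423509 to 3423864) had folds of 4.15 and 6.40 in the same libraries. The nearest replicate 1 peak was 19217 bp from the rho site and 18528 bp from the sty site. With peaks of a −log10 q-value of at least 5 5 of the 7 genes still had a 2-library site, all but Krn and ru. Without replicate 1 there were 3, without replicate 2 there were 4 and without replicate 3 there was 1.

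The remaining EGF receptor genes drew on replicate 1. Inside pnt were 2 sites of replicates 1 and 3, the stronger with folds of 7.27 and 4.32 (3R, 23334190 to 23334360), and the nearest replicate 2 peak was 117833 bp from the other. Replicates 1 and 3 also gave the site inside vn (3L, 5835422 to 5835605; folds 4.07 and 5.18). The same pair gave the one inside Krn (3L, 17653358 to 17653517; folds 3.27 and 4.14), which also lies inside the overlapping gene Ndfip. The ru site came from replicates 1 and 2 (folds 4.17 and 3.96), 1828 bp from a 3-library site, and lies inside Ptp61F, 1074 bp from ru. The pathway thus joined the list through different library pairs from gene to gene.

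Of 13 Hedgehog pathway genes 4 were added: the ligand gene hh, the effector gene ci, the engrailed paralogue inv, and rdx described above. A site 1527 bp from hh (3R, 23143434 to 23143644) had folds of 6.81 in replicate 2 and 5.30 in replicate 3. A second, inside hh, was weaker, with 3.72 in replicate 1 and 3.84 in replicate 3. At inv there were 3 sites on 2R, with folds between 3.62 and 4.49, and 2 of them rested on the same replicate 3 peak. The ci site on chromosome 4 had folds of 3.24 and 3.31 in replicates 2 and 3, at a mean percentile of 15.5. Its nearest 3-library site was 444945 bp away, and the site was lost at a −log10 q-value of at least 5. Of the 4 genes, 3 kept a site without replicate 1, 3 without replicate 2 and 1 without replicate 3.

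In the ecdysone list 5 of 20 genes were added and 5 had both kinds. Beside EcR these were br, ftz-f1, the ABC transporter gene E23 and the ecdysone-inducible gene ImpE2, whose site at 1753 bp is nearer to Eip63E. Inside ftz-f1, a nuclear receptor gene of the prepupal response, were 2 sites of replicates 1 and 3, with folds of 4.07 and 3.64 at 3L, 18759403 to 18759575, and 4.03 and 3.03 at 18800167 to 18800244. The site by br, the Broad zinc-finger gene (X, 1574318 to 1574462; folds 3.92 and 3.97 in replicates 1 and 3), lies 669 bp from br and inside Mur2B. These sites were weaker than those in EcR. With peaks of a −log10 q-value of at least 5 only EcR and ftz-f1 of the 5 kept a 2-library site. Without replicate 1 EcR alone did, without replicate 2 all 5 and without replicate 3 it was 0.

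Among adhesion genes 4 of 18 were added. Inside Lac, which encodes an immunoglobulin protein of septate junctions, a site of replicates 2 and 3 (2R, 12457441 to 12457770) had folds of 5.44 and 6.15, and another 3.98 and 4.67. The βPS integrin gene mys had a site only 17 bp wide (X, 8063464 to 8063480; folds 5.39 and 4.49 in replicates 1 and 3). The others, ed, which encodes an immunoglobulin adhesion protein, and the fasciclin gene Fas1, had sites at mean percentiles of 38.7 and 20.8. The integrin alpha subunit genes if and mew had both kinds of site.

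Of 16 matrix genes 3 were added, dpy, Mmp2 and Mmp1. The dpy gene, which encodes a giant apical matrix protein that anchors the wing and other epithelia, had 2 sites on 2L. One came from replicates 1 and 3 (4588788 to 4588927; folds 4.79 and 8.52), and the other from replicates 1 and 2 (4610767 to 4610794; folds 11.5 and 4.55), where replicate 1 was at percentile 99.3. They lay 221790 and 199923 bp from a 3-library site. The metalloprotease genes Mmp2 (2R, 9675059 to 9675288; folds 4.79 and 5.24) and Mmp1 (2R, 24685177 to 24685369; 3.91 and 4.76) each had a site in replicates 2 and 3.

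Of 18 chromatin genes 3 were added, trx, lola and Su(z)2. At lola, a BTB zinc-finger gene, the 3 sites again came from 3 pairs of libraries (2R, 10538214 to 10543522), with the highest fold, 7.12, in replicate 1. Su(z)2, a Polycomb group gene, had 2 sites from replicates 1 and 3, with folds of 3.88 and 4.10 at the one and 3.47 and 5.80 at the other. Its paralogue Psc had a 3-library site only.

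Proneural and sensory organ genes were added in 3 of 17 cases, and 0 had both kinds. The site 126 bp from B-H2, a Bar homeobox gene, was one of the strongest at any listed gene (X, 17314243 to 17314454), with folds of 5.78 in replicate 2 and 10.5 in replicate 3. At sca, which encodes a secreted fibrinogen-like protein, the folds were 4.71 in replicate 1 and 7.72 in replicate 3 (2R, 12788160 to 12788323). At phyl, an adaptor gene for protein degradation in photoreceptors and bristles, 2 adjoining sites had a mean percentile of 19.9, and one of them was 4 bp wide. Both phyl sites rested on the same replicate 2 peak (fold 2.81).

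Growth and survival genes were added in 3 of 19 cases. The site near CycB, the cyclin B gene, lay 677 bp from it and 499 bp from blw (2R, 22802680 to 22802843; folds 4.33 and 5.58 in replicates 2 and 3), with a replicate 1 peak 268 bp away. Near hid, a cell death gene, the folds were 5.48 in replicate 1 and 4.24 in replicate 3 (3L, 18186869 to 18186974). Inside foxo, which encodes the FOXO factor of insulin signalling, 3 weak sites had folds between 3.53 and 3.97.

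In the other lists few genes were added. Their shares ran from 4.76% (Notch) to 25% (planar polarity), beside 3.59% of all protein-coding genes. Each rests on 1 or 2 genes, and differences between lists were not tested. Of the Dpp pathway, whose listed genes otherwise had both kinds of site in 8 cases, brk, the repressor of Dpp targets, was the only added gene. Its site (X, 7307392 to 7307526) had folds of 5.02 in replicate 2 and 3.96 in replicate 3, and lies 412 bp from brk and inside CG1677. It was lost at a −log10 q-value of at least 5, so brk was no longer added at that setting. Of the Hox list it was pb, the proboscipedia gene of the mouthparts (3R, 6742121 to 6742240; folds of 4.46 in replicate 1 and 6.46 in replicate 3). Of the Notch list it was the Notch inhibitor gene numb (2L, 9451456 to 9451628; 4.59 in replicate 2 and 6.68 in replicate 3), and of the JAK/STAT list the feedback inhibitor gene Socs36E (2L, 18152433 to 18152629; 3.91 in replicate 2 and 5.20 in replicate 3). The Wnt list gained the ligand gene Wnt2 and Notum, whose product inactivates Wnt ligands. The Fat and Hippo list gained the kinase gene dco and the cadherin gene ft, whose site at 1799 bp is nearer to CG3702 at 916 bp. Both were lost at a −log10 q-value of at least 5, as was Notum. Further lists gained a pair of genes each, the wing list ab and sd, and the planar polarity list pk and the cadherin gene stan.

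Of these last 8 genes, Wnt2 had the strongest site (2R, 9497374 to 9497459; folds 5.15 in replicate 1 and 6.13 in replicate 3). The site inside sd, the gene of the DNA-binding partner of Vestigial, was modest, with 3.64 in replicate 1 and 4.31 in replicate 3 (X, 15811904 to 15812069), and 200904 bp from a 3-library site. The T-box list of 7 genes and the disc myoblast list of 14 gained 0 genes. With 3.59% of all protein-coding genes added, lists this short can gain 0, so no contrast with other lists is drawn.

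At genes that already had 3-library sites, the 2-library sites lengthened the series. The cofactor gene hth, which encodes the Hox partner Homothorax, had 7 beside 5 3-library sites, and shn, a zinc-finger mediator of Dpp signalling, had 6 beside 5. The receptor gene tkv had 5 beside 6, fz2 had 5 beside 5 and ds, the atypical cadherin gene of the Fat pathway, 5 beside 4. At ex, a Hippo pathway gene, the 4 sites lay 129, 189, 205 and 454 bp from a 3-library site, close to its flanks. The 4 sites of the Ubx gene itself all came from replicates 2 and 3, with folds between 3.49 and 6.995, and lay 374, 440, 4654 and 7094 bp from a 3-library site. In hth the distances were wider, between 166 and 38541 bp. Some sites counted at these genes share a peak with a 3-library site. Such sites lie in hth (10573800 to 10573923), tkv (5252983 to 5253487), fz2 (19163988 to 19164125) and ex (442562 to 442776).

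Of 260 microRNA genes, 8 had a 2-library site within 2 kb and no 3-library site. This share, 3.08%, was close to the 3.59% of protein-coding genes that were added. Among the 8 were mir-iab-4 and mir-iab-8 of the bithorax complex, which are transcribed from opposite strands of one locus. They share a single site 1335 bp away (3R, 16857678 to 16857891). Its folds were 5.997 in replicate 1 and 3.36 in replicate 3, and the nearest replicate 2 peak was 45704 bp off. The protein-coding gene nearest to this site was MSAmiP, at 0 bp.

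Position relative to genes was not used to choose the sites, so it could be compared with the 3-library sites. A protein-coding gene held the midpoint of 631 of 1114 2-library sites (56.6%; 53.7 to 59.5%), against 458 of 913 3-library sites (50.2%; 46.9 to 53.4%). The difference was 6.48 percentage points (Newcombe 95% interval 2.11 to 10.8; two-sided Fisher's exact test, adjusted p = 0.00482). Within 1 kb of a gene end, on either side of it, lay 200 2-library sites (17.95%) and 116 3-library sites (12.7%), a difference of 5.25 points (2.09 to 8.35; Fisher's exact test, adjusted p = 0.00405). Outside genes and over 1 kb from any end lay 383 (34.4%) against 370 (40.5%), a difference of −6.15 points (−10.4 to −1.91; Fisher's exact test, adjusted p = 0.00482). Neighbouring sites are not independent, so these p-values, adjusted over the 3 categories, are too small; they compare sites and not animals. The first and second category overlap.

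The library pairs did not share the excess inside genes. Inside genes lay 64.0% of the sites of replicates 1 and 3, against 51.5% of those of replicates 2 and 3, which differ by 12.5 points (6.39 to 18.4; Fisher's exact test, adjusted p = 0.000228, a comparison chosen after the values were seen). Of the 67 sites of replicates 1 and 2, 59.7% lay inside genes (47.7 to 70.6%), an interval that holds both of these shares. Without replicate 1, which leaves the sites of replicates 2 and 3, the difference from the 3-library sites was 1.34 points inside genes and −1.82 points outside, and neither passed (Fisher's exact test, adjusted p = 0.642 for each). The excess near gene ends was 5.62 points in that pair and did pass (Fisher's exact test, adjusted p = 0.00879). Without replicate 3 the 67 sites left passed none of the tests (Fisher's exact test, adjusted p = 0.163 in each category). Of peaks found in 1 library, 69.1% lay inside genes for replicate 1, 56.4% for replicate 2 and 58.9% for replicate 3. Near a gene end lay 19.96%, 19.2% and 23.9% of them, each above the 17.95% of 2-library sites, so the share near gene ends was not higher at 2-library sites than at 1-library peaks; these differences were not tested. The share inside genes moved with the library pair, and the part of replicate 1 in it was not tested.

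**Figure D5:**
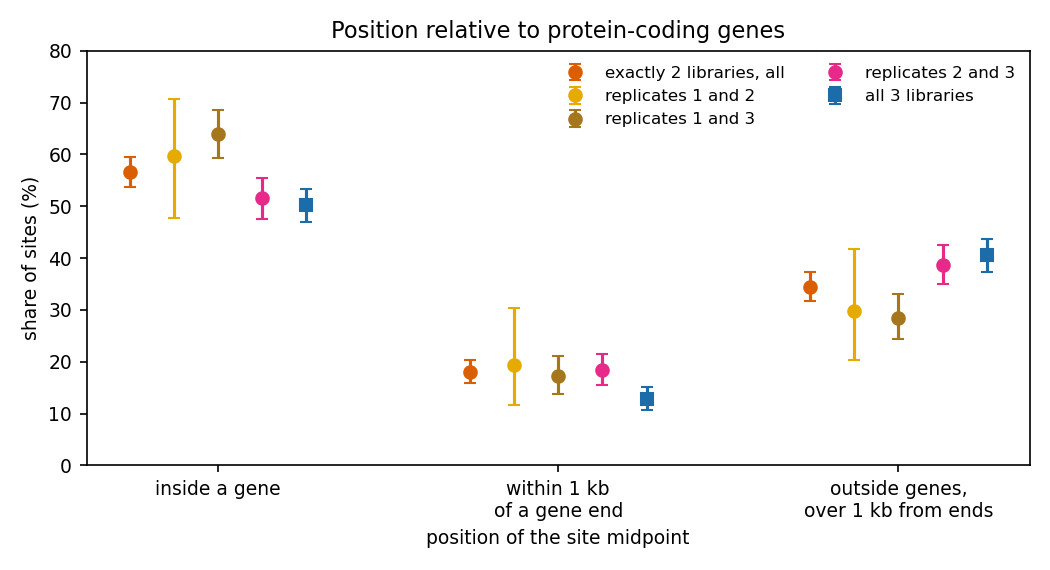
Share of sites (%) with their midpoint inside a gene, within 1 kb of a gene end, or outside genes, for sites in exactly 2 libraries and their library pairs (circles) and sites in all 3 libraries (squares); bars are 95% Wilson intervals. Inside genes lie 64.0% of sites of replicates 1 and 3, 59.7% of replicates 1 and 2 with a wide interval, and 51.5% of replicates 2 and 3, near the 50.2% of sites in all 3 libraries.

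By distance, the share inside genes was 48.7% for the sites within 2 kb of a 3-library site, 47.1% at 2 to 20 kb, 67.6% at 20 to 100 kb and 69.1% beyond 100 kb. The share at an added gene was 5.24%, 24.1%, 68.4% and 87.0% over the same classes, which is largely set by the definition of an added gene and is no separate result.

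Over the arms, X held 145 of the 2-library sites (13.02%; 11.2 to 15.1%) and 88 of the 3-library sites (9.64%; 7.89 to 11.7%). On X the share was 14.7% for replicates 1 and 3, 12.8% for replicates 2 and 3 and 4.48% for replicates 1 and 2, the last from 3 sites. Of the peaks found in replicate 1 only, 20.1% lay on X. The shares on 2L, 2R, 3L and 3R were between 19.9 and 23.4% for 2-library sites and between 18.5 and 25.4% for 3-library sites, and chromosome 4 had 4 and 3 sites. None of these shares was tested.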

How the data were processed

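Per the submitters' processing notes, reads were handled with Trimmomatic 0.36, BWA and MACS2 on the build BDGP6; options, control and duplicate handling are not given in the sources used here. The authors deposited 1 narrowPeak list per library, with a fold enrichment (a linear ratio), a −log10 p-value, a −log10 q-value and a score per peak, and each deposited score equals 10 × the −log10 q-value, cut to a whole number. The consensus list gives positions only, and its 2171 regions are identical to the stretches covered by at least 2 lists. No file gives read depth, so depth and binding cannot be told apart where a library has no peak, and intervals cover counting error only.

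Overlaps of at least 1 bp, edge-to-edge gaps, percentiles of fold within each whole list and gene assignments were computed with Python 3.11.15, numpy 2.4.6 and pandas 2.3.3, and intervals and Fisher's exact tests with scipy 1.17.1 and statsmodels 0.14.6. The code was tested on simulated data. Where several peaks of a library overlapped a site, the strongest was used. The histone genes left out are 111 genes from 21416953 to 21541681 on 2L, with the genes inside that span. All 293 listed genes were found in the gene table, 7 of them through older names. Named genes are those added genes of each list with the highest mean percentile of their sites, the 10 added genes with most sites (ties by mean percentile), the genes nearest to the 10 strongest sites, and sites at the extremes of distance and of the overlap rule; further listed genes, all genes with both kinds of site and the microRNA genes were named after their values were seen. The sites, lists and tests were chosen with earlier results of these data known. A planned comparison of motifs was not run, because no genome sequence was used here. Alternatives were a stricter q-value, a stricter overlap, a minimum width, other gene windows and leaving out each library. A result at 1 of the 10 added genes with most sites is not reported here.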

Additional observations from a re-analysis of the deposited data

Results flagged for a closer look

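The sites set aside by the rule also held signal. In the histone gene cluster of 2L, 109 consensus regions were recovered in exactly 2 libraries, 108 of them by replicates 2 and 3 and 1 by replicates 1 and 3. On the Y chromosome and the unplaced scaffolds there were 21, all from replicates 2 and 3, of which 16 lay on Y. Both sets lie outside the sites described above and drew attention as peaks in regions that no comparison uses. No control library was analysed here, so no background level can be set beside them.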

How the results depend on the processing

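Leaving out 1 library at a time keeps only the sites of the remaining pair, which by construction lowers the counts. The 3-library sites were left unchanged, so the comparison set still rests on the library left out. The number of 2-library sites was then between 67 and 633, against 1114, the number of added genes between 37 and 306, against 496, and the median distance between 11012 and 14123 bp, against 13030 bp. The difference between 2-library and 3-library sites was between 1.34 and 13.8 percentage points inside genes, between 4.44 and 6.70 near gene ends and between −12.0 and −1.82 outside genes. It missed the threshold without replicate 1 inside and outside genes, and without replicate 3 in all 3 categories, where only 67 sites were left.

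Keeping peaks with a −log10 q-value of at least 5 gave 874 sites, 415 added genes, of which 324 were among the 496, and a median distance of 17360 bp. The setting applies to the peaks of 3-library sites too, so the sites to which distances are measured also change. Requiring 50% of the region to be covered gave 1230 sites and 530 added genes. Dropping regions under 50 bp gave 1063 and 485, and keeping the histone cluster gave 1223 sites. Added genes numbered 290 with gene bodies only, 786 with 5 kb flanks and 388 when each site went to its nearest gene. The median distance was 14049 bp for sites sharing no peak with a 3-library site. Gene ends of 500 bp or 2 kb, and 1 site per chain, kept all 3 location differences in direction and past the threshold.

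Of the 44 listed genes that were added, 25 were still added without replicate 1, 26 without replicate 2, 6 without replicate 3, 32 with the stricter q-value (lost were br, brk, ci, dco, E23, Fas1, ft, ImpE2, Krn, Notum, phyl and ru), 44 with the stricter overlap and 43 with the minimum width. The cause of the changes under the stricter q-value was not tested. No paired analysis was possible because the sites compared come from the same 3 libraries of a single group. The motif comparison and its alternatives were not run. Depth being unknown, a weak site and an absent one cannot be told apart in a library with no peak.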
